A study of Mus musculus with 9 samples.

Results

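The 39 protein-coding Hox genes of the mouse were followed across 9 libraries from the substantia nigra, the midbrain region whose dopamine neurons are lost in Parkinson's disease. They were taken by their symbols alone (Hoxa, Hoxb, Hoxc or Hoxd with a number), with no filter on level, from the 55335 genes of the expression table. The genes lie in 4 clusters on build GRCm38: 11 genes of cluster a at chr6:52155590-52260880, 10 of cluster b at chr11:96194316-96368256, 9 of cluster c at chr15:102921103-103036852 and 9 of cluster d at chr2:74668310-74765142. Vehicle mice received saline 2 times a week for 5 weeks. MPTP mice received 20 mg/kg of MPTP, a precursor of a toxin of dopamine neurons, on the same schedule, by injection into the abdomen. Mice of the MPTP plus exercise group received the same MPTP and ran on wheels at will for 2 months from the first injection. Each group had 3 libraries, with 3 mice named per group. One mouse per library was implied but not stated, so the spread given is that between these libraries, which may be partly technical. Strain, genotype, sex and age were not given in the sources used here, and the sample labels call the tissue brain tissue while the design text names the substantia nigra. Replicates are written below as vehicle 1 to 3, MPTP 1 to 3 and exercise 1 to 3.

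Hox genes encode homeodomain transcription factors that set the position of cells along the head-to-tail axis. Within each cluster the genes are ordered by paralog group, numbered 1 to 13, and genes with low numbers are expressed furthest towards the head. In the nervous system their expression starts in the hindbrain, with the first paralog groups in its segments, and the higher groups are expressed further down the spinal cord. The forebrain and midbrain lie in front of this domain, so Hox transcripts are commonly read as marks of hindbrain or spinal cord tissue.

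The promoters of 22 of the 39 genes were matched in the RefSeq table (GRCm38.p6), as the 250 bases before each start. They are shown for 3 genes of cluster a with very different levels here: Hoxa2, a low-numbered gene that sets identity in the front hindbrain segments, Hoxa5, among the highest of the 39 genes in 1 library, and Hoxa9, listed at 0 in every library. Each runs 5′ to 3′ on the minus strand, and capitals mark matches to the motifs searched.
Hoxa2, chr6:52164832-52165081: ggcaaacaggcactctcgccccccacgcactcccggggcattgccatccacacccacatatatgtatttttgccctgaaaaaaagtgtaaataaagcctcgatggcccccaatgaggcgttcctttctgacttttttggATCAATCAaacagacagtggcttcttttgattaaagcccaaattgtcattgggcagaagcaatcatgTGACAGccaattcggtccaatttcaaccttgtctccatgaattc
Hoxa5, chr6:52204588-52204837: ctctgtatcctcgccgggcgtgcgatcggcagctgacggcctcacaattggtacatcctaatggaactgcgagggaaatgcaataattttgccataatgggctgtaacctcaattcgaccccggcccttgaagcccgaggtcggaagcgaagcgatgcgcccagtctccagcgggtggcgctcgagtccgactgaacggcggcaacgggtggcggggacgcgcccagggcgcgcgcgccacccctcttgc
Hoxa9, chr6:52227371-52227620: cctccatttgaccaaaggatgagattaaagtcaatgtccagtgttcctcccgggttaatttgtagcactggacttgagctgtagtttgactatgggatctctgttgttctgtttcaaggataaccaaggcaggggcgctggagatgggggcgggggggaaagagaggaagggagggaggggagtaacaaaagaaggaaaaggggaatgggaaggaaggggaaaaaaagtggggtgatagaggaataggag
The composite motif of Pbx and Hox proteins, TGATNNAT on both strands, was present in 3 of the 22 Hox promoters (13.6%), those of Hoxa2, Hoxb1 and Hoxb8, against 7.68% of 32851 promoters of the same length. The Meis and Pknox motif TGACAG, on both strands, was present in 2 (9.09%), those of Hoxa2 and Hoxa3, against 15.9%. The TATA box letters TATAAA, on the gene's strand, were present in 1 (4.55%), that of Hoxd13, against 7.59%. The Hox promoters held a median of 12 CpG, against 6 over all promoters, with 28 in Hoxa5, 6 in Hoxa2 and 3 in Hoxa9. These matches are a description of the letters in these windows.

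Levels were read as FPKM, the authors' fragment counts scaled by gene length and sequencing depth. From the spacing of low values, depth was estimated at 22190000 to 26920000 fragments per library, so that 1 fragment was worth a median of 0.0165 FPKM over the Hox genes (0.00618 to 0.0516, by gene length and library). This estimate is rough, since only 38.95% to 42.5% of low values lay within 2% of a whole number of fragments. Beside the tissue label, the level of Slc6a3, the dopamine transporter that defines midbrain dopamine neurons, was read. It stood at 3.40, 1.41 and 10.8 FPKM in vehicle 1 to 3, at 2.75, 0.0377 and 14.4 FPKM in MPTP 1 to 3 and at 0.149, 0 and 10.6 FPKM in exercise 1 to 3. The transporter was near or at 0 in MPTP 2, exercise 1 and exercise 2. These libraries came from mice given MPTP, so Slc6a3 cannot tell loss of dopamine neurons from a difference in the tissue taken. Neither was tested. Other genes of dopamine neurons, which noradrenergic or serotonergic neurons also use, ranked the libraries otherwise only in part. Th, the enzyme that makes the dopamine precursor, was 5.30, 2.97 and 15.6 FPKM in vehicle, 5.93, 1.64 and 12.5 in MPTP and 2.66, 5.35 and 6.69 in exercise 1 to 3. Like Slc6a3, Th was highest in vehicle 3, MPTP 3 and exercise 3. In exercise 2, with Slc6a3 at 0, Slc18a2 stood at 9.64 FPKM and Ddc at 8.20, while MPTP 2 had the lowest Th, Slc18a2 and Ddc of the 9 libraries. Slc6a3 was singled out after its values were seen.

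The 39 Hox genes together were high in 4 libraries and near 0 in 5, and this division ran through every group. Their summed level was 0.277, 6.53 and 0.156 FPKM in vehicle 1 to 3. It was 6.02, 13.8 and 0.307 FPKM in MPTP 1 to 3. In the exercise group it was 0.295, 51.3 and 0.120 FPKM. The library numbered 2 was the highest of each group, MPTP 1 was also high, and the ranges of the 3 groups overlapped. The summed level of exercise 2 corresponded to an estimated 2986 fragments and those of vehicle 2, MPTP 1 and MPTP 2 to 451, 448 and 859, whereas the other 5 libraries held 6.54 to 19.9. In bulk tissue, fewer cells of a type and less RNA per cell cannot be told apart.

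**Figure D1:**
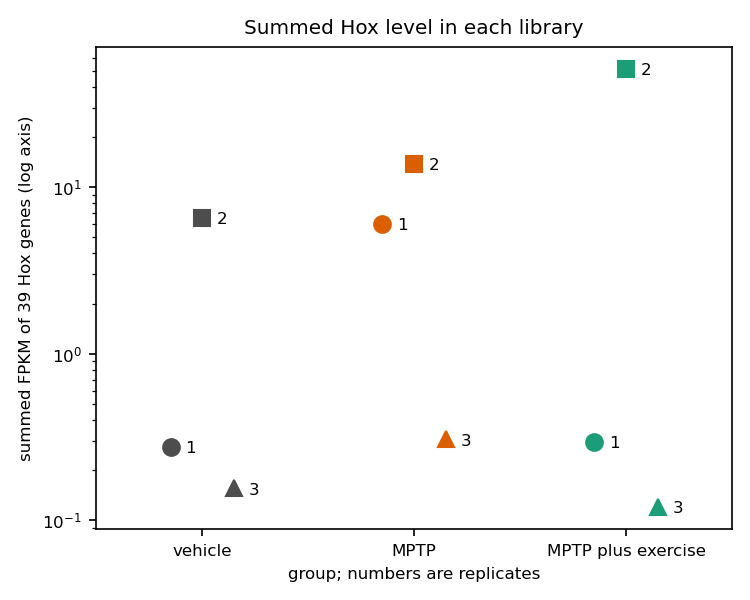
Summed FPKM of the 39 Hox genes (log axis) in each library, by group, each point 1 library marked with its replicate number. Vehicle 2, MPTP 1, MPTP 2 and exercise 2 stood between 6.02 and 51.3 FPKM and the other 5 libraries at or below 0.307 FPKM.

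By group the summed level averaged 2.32 ± 3.64 FPKM in vehicle, 6.70 ± 6.75 in MPTP and 17.2 ± 29.5 in MPTP plus exercise (SD, n = 3 each). On the log2 scale the order of the last 2 groups was the opposite, with means of -0.61, 1.56 and 0.29. The differences of log2 means were 2.17 for MPTP against vehicle, -1.27 for MPTP plus exercise against MPTP and 0.90 for MPTP plus exercise against vehicle, each smaller than the pooled SD of 3.60 between libraries of a group. Replicate numbers carry no stated meaning, so pairs by number are only a description. Paired so, MPTP exceeded vehicle in 3 of 3 pairs, by 4.44, 1.08 and 0.98 on the log2 scale. The last pair compares sums of only 0.307 and 0.156 FPKM. MPTP plus exercise exceeded MPTP only at number 2, and vehicle only at numbers 1 and 2. No test was made of the summed differences. Leaving out 1 library at a time moved the differences of log2 means from 1.05 to 3.82, from -3.97 to 0.40 and from -1.80 to 2.57. The difference of MPTP plus exercise from vehicle changed sign without exercise 2 (-1.80) and without vehicle 3 (-0.14), and that from MPTP changed sign without exercise 3 (0.40).

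Of the 39 genes, 24 were above 0 in at least 1 library and 15 were listed at 0 in all 9. The genes above 0 were mostly those of low paralog number. Among paralog groups 1 to 8, 21 of 23 genes were above 0 somewhere, the exceptions being Hoxb1 and Hoxc8. Among groups 9 to 13, 3 of 16 were: Hoxd9, Hoxb13 and Hoxd13. The number of genes above 0 was 5, 17 and 3 in vehicle 1 to 3, 16, 22 and 8 in MPTP 1 to 3, and 8, 23 and 4 in exercise 1 to 3. At a level of at least 1 FPKM there were 14 genes in exercise 2, 6 in MPTP 2, 2 in vehicle 2, 1 in MPTP 1 and 0 in the other 5 libraries. Of the 24 genes, 22 had their highest value in exercise 2.

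Some genes of paralog group 1 specify the early hindbrain segments. Hoxd1 was the only gene of the 39 above 0 in all 9 libraries. It stood at 0.0712, 0.0517 and 0.107 FPKM in vehicle, 0.200, 0.138 and 0.0453 in MPTP and 0.107, 0.610 and 0.0603 in exercise 1 to 3. Its level in vehicle 2 was the lowest of the vehicle libraries, unlike that of the summed Hox genes. These levels amount to an estimated 2.94, 2.52 and 5.02 fragments in vehicle 1 to 3, too few to order the libraries.

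Paralog group 2 also acts in the front segments of the hindbrain. Hoxa2, which also patterns the skeleton of the second pharyngeal arch, was 0, 0.625 and 0 FPKM in vehicle 1 to 3, 0.608, 1.13 and 0.0663 in MPTP 1 to 3, and 0, 1.22 and 0.0317 in exercise 1 to 3. Hoxb2, its paralog in cluster b, was 0.0130, 0.304 and 0 FPKM in vehicle, 0.169, 0.442 and 0 in MPTP, and 0, 1.36 and 0 in exercise. The highest value of Hoxa2 was 1.08 times its second highest, in MPTP 2, and that of Hoxb2 3.09 times, so these paralogs differed in how far exercise 2 stood above MPTP 2.

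Group 3 genes are used in the middle and rear hindbrain. Hoxb3 was 0, 0.475 and 0 FPKM in vehicle 1 to 3, 0.666, 1.30 and 0.0199 in MPTP 1 to 3, and 0.0617, 2.89 and 0 in exercise 1 to 3. Hoxd3 followed with 0, 0.309 and 0 in vehicle, 0.492, 1.05 and 0.0202 in MPTP, and 0.0190, 2.44 and 0 in exercise. Hoxa3, which also acts in the thymus and parathyroid glands, was 0, 0.107 and 0 in vehicle, 0.241, 0.452 and 0 in MPTP, and 0.00661, 0.879 and 0 in exercise. All 3 genes had the order exercise 2, MPTP 2, MPTP 1, vehicle 2. The 0.00661 FPKM of Hoxa3 in exercise 1, the lowest Hox value above 0, amounts to about 1.01 estimated fragments.

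Group 4 genes mark the rear hindbrain, and for Hoxa4, Hoxb4 and Hoxc4 vehicle 2 stood at or above MPTP 1. Hoxa4 was 0, 1.006 and 0 FPKM in vehicle 1 to 3, 1.003, 1.37 and 0 in MPTP 1 to 3, and 0.0497, 4.56 and 0 in exercise 1 to 3. Hoxc4 was 0, 1.06 and 0 in vehicle, 0.493, 0.978 and 0.0329 in MPTP, and 0, 4.40 and 0 in exercise. Hoxc4 was the highest Hox gene of vehicle 2, and Hoxa4 that of MPTP 1. Hoxb4 was 0, 0.508 and 0.0308 in vehicle, 0.220, 0.760 and 0 in MPTP, and 0, 2.83 and 0 in exercise. Hoxd4 was 0, 0.154 and 0 in vehicle, 0.228, 0.307 and 0 in MPTP, and 0, 1.97 and 0 in exercise. In each of the 4 paralogs exercise 2 was at least 3.32 times the next library, and the libraries of each group overlapped with those of the others.

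The highest Hox levels belonged to group 5, whose members act in the rear hindbrain and the neck part of the spinal cord. Hoxb5 was 0, 0.957 and 0 FPKM in vehicle 1 to 3, 0.682, 1.88 and 0.0303 in MPTP 1 to 3, and 0, 10.01 and 0 in exercise 1 to 3. Hoxa5, needed with Hoxc5 for the motor neurons of the diaphragm, was 0, 0.478 and 0 in vehicle, 0.386, 2.22 and 0 in MPTP, and 0, 9.60 and 0 in exercise. Hoxc5 was 0, 0.269 and 0 in vehicle, 0.121, 0.383 and 0 in MPTP, and 0, 2.06 and 0 in exercise. Exercise 2 alone held 73.8% of the FPKM of Hoxb5 summed over the 9 libraries, 75.7% of that of Hoxa5 and 72.7% of that of Hoxc5.

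The genes of groups 6 to 8 are used mainly in the spinal cord, and they were almost limited to exercise 2 and MPTP 2. Hoxb6 was 2.49 FPKM in exercise 2, 0.595 in MPTP 2 and 0.0953 in MPTP 1, and Hoxa6 was 1.25 FPKM in exercise 2 and 0.298 in MPTP 2, each listed at 0 in the other libraries. Hoxb8, known for its part in grooming behaviour and as a mark of one lineage of microglia, was 1.31 FPKM in exercise 2 and 0.0616 in MPTP 2, and Hoxb7 was 0.519 and 0.0281. Both were listed at 0 in the other 7 libraries, including vehicle 2 and MPTP 1. Exercise 2 stood 21.3 times above MPTP 2 for Hoxb8 and 18.5 times for Hoxb7, against 4.19 times for Hoxb6 and 4.20 times for Hoxa6. Hoxa7, Hoxc6 and Hoxd8 stayed at or below 0.216 FPKM in every library.

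Of groups 9 to 13, which pattern the rear trunk, the limbs and the genital region, nothing exceeded 0.0755 FPKM. That value was Hoxd13 in MPTP 1. Hoxd13 was above 0 in 6 libraries, at 0.0151 to 0.0755 FPKM, Hoxd9 in MPTP 2 and exercise 2 at 0.0100 and 0.0209, and Hoxb13 in vehicle 1 alone at 0.0206. These values amount to few estimated fragments. All genes of groups 10 to 12 were listed at 0 in every library.

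**Figure D2:**
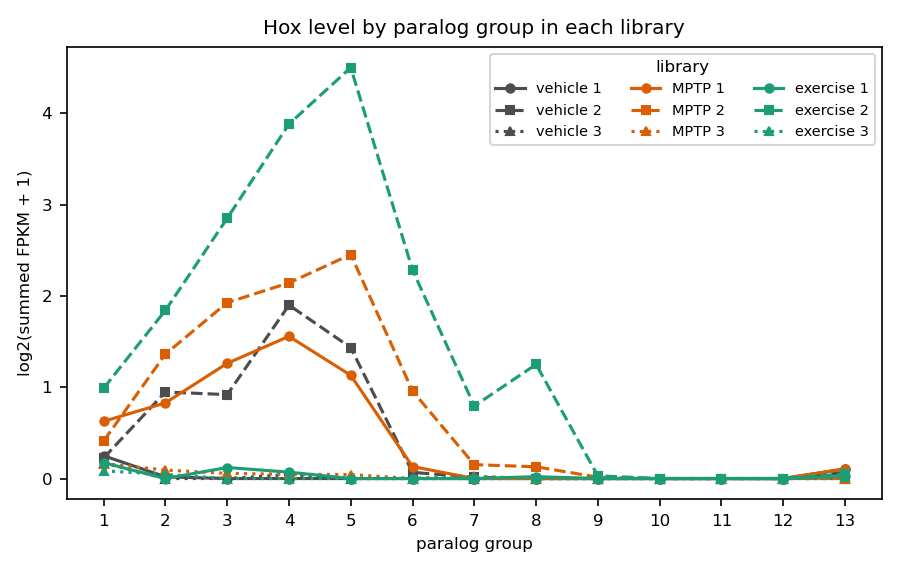
Summed level of each paralog group, as log2(summed FPKM + 1), against paralog group number, with 1 line per library. In exercise 2 and MPTP 2 the lines peaked at group 5 and in vehicle 2 and MPTP 1 at group 4, and the other 5 libraries lay near 0 throughout.

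The makeup of the Hox signal differed between the 4 libraries with high sums. Groups 4 and 5 made up 67.9% of it in vehicle 2, 52.0% in MPTP 1, 57.4% in MPTP 2 and 69.1% in exercise 2. Groups 1 to 3 made up 30.5%, 45.1%, 34.2% and 19.1% in the same order. Groups 6 to 8 made up 0.884%, 1.58%, 8.34% and 11.7%. Vehicle 2 and MPTP 1, with nearly equal sums, differed in their share of groups 1 to 3, and of these 4 only MPTP 2 and exercise 2 had more than 2% in groups 6 to 8. Cluster a held 35.9%, 42.9%, 41.7% and 35.3% of the signal and cluster b 34.4%, 30.4%, 36.8% and 41.8%. Cluster c held 21.1%, 10.2%, 10.3% and 12.8%, and was highest in vehicle 2. Each of these shares is 1 library's, with no replicate check.

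For the first comparison, the effect of MPTP, limma was run on log2(FPKM + 1) over the 15997 genes that averaged 0.5 FPKM or more. The Hox genes that passed this filter were 5 of 39, Hoxa4, Hoxa5, Hoxb3, Hoxb5 and Hoxc4, and none of the 39 passed it without exercise 2. With limma, 0 of the 5 differed between MPTP and vehicle at an adjusted p under 0.05, where 0.0125% of all genes tested (2 genes, both higher) did, and 0 of the 5 had an unadjusted p under 0.05, against 4.09% of all genes. The MPTP and vehicle libraries did not overlap for 0 of the 5, against 9.43% of all genes. The log2 fold changes were 0.53 ± 0.86 for Hoxa5, 0.47 ± 0.51 for Hoxb3, 0.45 ± 0.87 for Hoxb5, 0.41 ± 0.66 for Hoxa4 and 0.19 ± 0.63 for Hoxc4 (SE, n = 3 per group). These SEs use the spread pooled over all 3 groups, exercise 2 included. With only the MPTP and vehicle groups in the fit they were 0.42, 0.31, 0.42, 0.40 and 0.35 in the same order. The median fold change of the 5 genes was 0.45, against -0.01 over all genes, and limma's adjusted p ran from 0.991 to 0.993. Without MPTP 2 the values fell to 0.048, 0.20, 0.074, 0.17 and -0.036 in the same order, and with 1 other library left out they ran up to 0.89, 0.78, 0.82, 0.79 and 0.54. The highest were those without MPTP 3, and for Hoxc4 without vehicle 2, while without vehicle 1 or vehicle 3 Hoxc4 was at 0.014.

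The second comparison asks what running added to MPTP. Of the 5 genes, 0 differed by limma between MPTP plus exercise and MPTP, beside 0% of all genes, and 0 had an unadjusted p under 0.05, against 3.99%. In 0 of the 5 were the libraries of the 2 groups without overlap, against 8.02% of all genes. The log2 fold changes were 0.42 ± 0.86 for Hoxa5, 0.38 ± 0.87 for Hoxb5, 0.27 ± 0.63 for Hoxc4, 0.10 ± 0.66 for Hoxa4 and 0.03 ± 0.51 for Hoxb3 (SE, n = 3 per group). All 5 had an adjusted p of 0.9999 by limma. Their median was 0.27, against -0.01 over all genes, but the filter, passed only through exercise 2, favoured positive values here. These values rested on exercise 2: without it, the fold changes of the same genes were -0.72, -0.77, -0.54, -0.71 and -0.61, and with a pseudocount of 0.1 in place of 1 they were -0.072, -0.33, -0.31, -0.41 and -0.47. Without MPTP 3 the values for Hoxa4 and Hoxb3 were -0.28 and -0.29, and those for Hoxa5 and Hoxb5 were 0.057 and 0.016.

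In the third comparison, of MPTP plus exercise with vehicle, 0 of the 5 genes differed by limma, beside 0% of all genes, and 0 had an unadjusted p under 0.05, against 6.54%. The libraries were without overlap for 0 of the 5, against 15.6% of all genes. The log2 fold changes were 0.95 ± 0.86 for Hoxa5, 0.83 ± 0.87 for Hoxb5, 0.51 ± 0.66 for Hoxa4, 0.50 ± 0.51 for Hoxb3 and 0.46 ± 0.63 for Hoxc4 (SE, n = 3 per group), with adjusted p from 0.812 to 0.878 by limma. Their median was 0.51, against -0.02 over all genes. The 5 genes passed the filter only through exercise 2, which favoured a positive median here, so it is a description. Without exercise 2 the 5 values were -0.19, -0.32, -0.30, -0.14 and -0.35. The 3 comparisons share groups, so they are not separate evidence. With no filter, 24 Hox genes entered limma among 35406 genes, and 0 were called in any comparison. Of all 35406 genes, 3, 3 and 0 were called in the 3 comparisons, so the lack of Hox calls says little about these genes. The Hox genes had 0 at an unadjusted p under 0.05 and lowest adjusted p of 0.918, 1 and 0.862. The share of all genes at that unadjusted p is not given for this fit.

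These 5 genes varied widely within groups. The SD between libraries of a group, on the log2(FPKM + 1) scale, was 1.27 for Hoxb5, 1.26 for Hoxa5, 0.96 for Hoxa4, 0.92 for Hoxc4 and 0.75 for Hoxb3, against a median of 0.16 over the 15997 genes. Since the 5 genes passed the filter only through their high values in exercise 2, a large spread was fixed by how they came to be tested, and these SDs are a description.

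Of the 2 genes fixed as marks of glycinergic neurons of the hindbrain and spinal cord, Slc6a5 was high in the same libraries as the Hox genes and Glra1 only in part. Slc6a5, the glycine transporter of glycinergic neurons, was 1.33, 8.21 and 0.0579 FPKM in vehicle 1 to 3, 14.3, 16.2 and 1.07 in MPTP 1 to 3, and 1.76, 34.6 and 0.657 in exercise 1 to 3. Glra1, a glycine receptor subunit, was 9.16, 7.80 and 2.59 in vehicle, 16.7, 6.57 and 4.61 in MPTP, and 3.36, 26.8 and 3.96 in exercise. For Slc6a5 the same 4 libraries stood above the other 5, whereas Glra1 was higher in vehicle 1 than in vehicle 2 and MPTP 2. These 2 genes formed the glycinergic list. Its summed level ran from 2.65 to 16.0 FPKM in vehicle, 5.68 to 30.9 in MPTP and 4.62 to 61.5 in exercise libraries, and no marker was listed at 0. Of the 2, 0 passed limma's threshold in any comparison, against 0.0125%, 0% and 0% of all genes in the 3 comparisons. At an unadjusted p under 0.05 there were 0, against 4.09%, 3.99% and 6.54% of all genes in the 3 comparisons. The part of these 2 genes in the Hox values was not tested.

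Genes of other neuron types of the hindbrain did not divide the libraries as the Hox sum did. Dbh, the enzyme that makes noradrenaline, was 3.32, 1.10 and 0.0882 FPKM in vehicle, 2.33, 0.945 and 0.539 in MPTP, and 1.81, 6.15 and 1.13 in exercise 1 to 3. It was highest in exercise 2, but vehicle 1 stood above vehicle 2, MPTP 1 and MPTP 2. The noradrenergic list of 4 genes, which also holds Slc6a2, summed to 0.0946 to 5.72 FPKM in vehicle, 0.969 to 5.38 in MPTP and 2.06 to 11.3 in exercise libraries, with Phox2a listed at 0 in at least 1 library. Tph2, the enzyme of serotonin synthesis in the raphe nuclei, went another way: it was 18.2, 7.57 and 0.124 FPKM in vehicle, 13.6, 1.74 and 15.1 in MPTP, and 13.3, 15.1 and 14.3 in exercise. Vehicle 1, MPTP 3 and exercise 1 and 3 thus had much Tph2 and hardly any Hox signal. The serotonergic list of 4 genes summed to 3.31 to 31.6, 5.78 to 27.2 and 23.8 to 26.9 FPKM in the 3 groups, with Fev listed at 0 in vehicle 3. Of 6 cholinergic and motor neuron genes, Isl2 and Mnx1 were listed at 0 in at least 1 library and the sum ran from 2.79 to 5.65, 6.08 to 11.7 and 4.39 to 14.3 FPKM. With limma, 0 genes of these 3 lists were called in any comparison, against 0.0125%, 0% and 0% of all genes in the 3 comparisons. At an unadjusted p under 0.05 there were 1, 0 and 1 cholinergic genes and 0 of the other lists, against 4.09%, 3.99% and 6.54% of all genes. The part of these neurons in the Hox values was not tested.

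**Figure D3:**
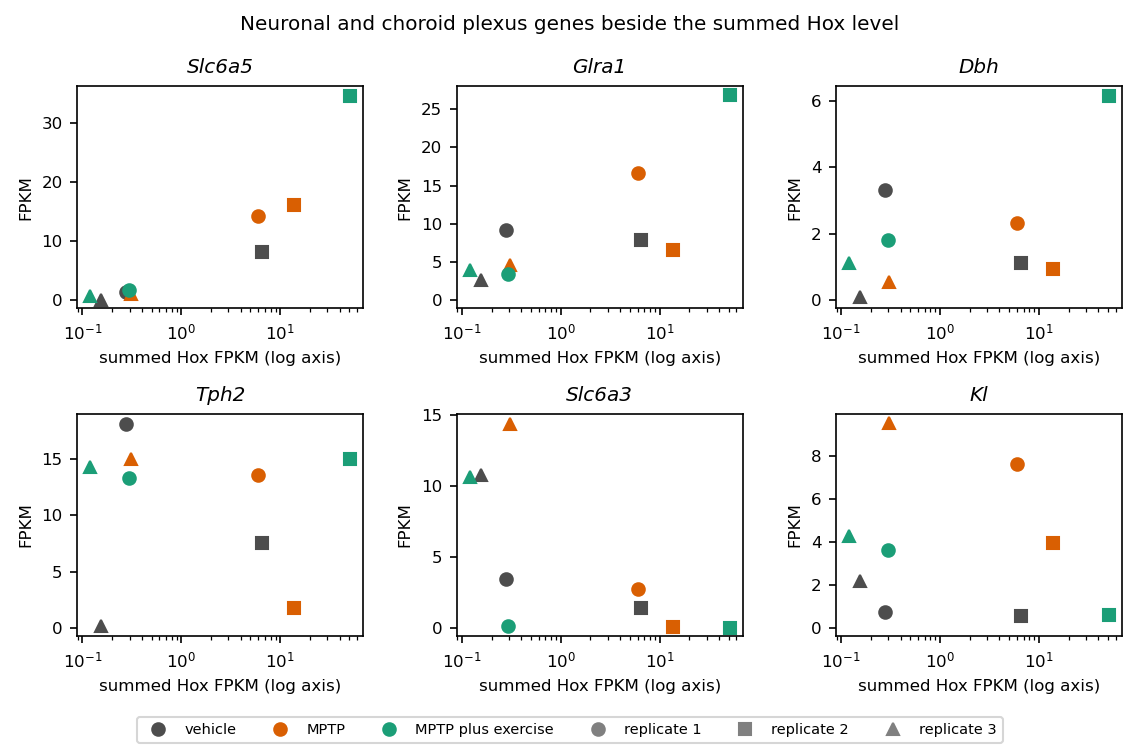
Level in FPKM of 6 genes against the summed Hox FPKM (log axis), each point 1 library, coloured by group and shaped by replicate number. Slc6a5 was 8.21 to 34.6 FPKM in the 4 libraries with high Hox sums and at most 1.76 FPKM in the other 5. Tph2 and Kl did not divide the libraries in this way. Slc6a3 was at most 2.75 FPKM in the 4 libraries and at least 3.40 FPKM in the other 5 except exercise 1, at 0.149 FPKM.

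The summed levels of midbrain, forebrain and choroid plexus lists ordered the libraries in other ways, though single genes could follow the Hox division. The midbrain dopamine list of 9 genes summed to 48.9 to 72.9 FPKM in vehicle, 43.9 to 88.6 in MPTP and 48.8 to 73.8 in exercise libraries, much of it Aldh1a1, and Slc6a3, Pitx3 and Foxa1 were each listed at 0 in at least 1 library. Choroid plexus genes, from the tissue that secretes the cerebrospinal fluid, summed to 36.2 to 340 FPKM in vehicle, 948 to 2058 in MPTP and 21.6 to 943 in exercise libraries. The lowest sum was that of exercise 2. The 11 genes of midbrain and isthmus position, among them Otx2 and En1, summed to 5.01 to 10.3, 4.82 to 11.2 and 4.96 to 8.19 FPKM in the 3 groups. Within this list Pax2 divided the libraries as the Hox sum did. It was 0.275, 0.741, 1.01 and 1.51 FPKM in vehicle 2, MPTP 1, MPTP 2 and exercise 2, and at most 0.139 elsewhere. Gbx2 divided them in the opposite sense, with at most 0.465 FPKM in those libraries and at least 1.02 elsewhere. No other gene of the list did either, and both were singled out after their values were seen. The 8 genes of forebrain position summed to 10.5 to 36.5, 16.3 to 25.1 and 9.33 to 26.3 FPKM, lowest in exercise 2. Kl, a choroid plexus gene, was 0.725, 0.540 and 2.19 FPKM in vehicle 1 to 3, 7.63, 3.92 and 9.49 in MPTP, and 3.60, 0.612 and 4.26 in exercise. With limma, 0 genes of these lists were called in any comparison, against 0.0125%, 0% and 0% of all genes in the 3 comparisons. At an unadjusted p under 0.05 there were 6 of 7 choroid plexus genes for MPTP against vehicle and 2 for MPTP plus exercise against MPTP, 1 midbrain and isthmus gene in the latter, and 0 dopamine or forebrain genes, against 4.09%, 3.99% and 6.54% of all genes in the 3 comparisons. Their part in the Hox values was not tested.

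The genes that work with or upstream of Hox genes gave no call in these comparisons, and nor did nearly all genes. Of all genes tested, 0.0125%, 0% and 0% were called in the 3 comparisons. The TALE class cofactors (Meis, Pbx and Pknox), which bind DNA together with Hox proteins, were all tested, 9 of 9. Of them 0 were called by limma in any comparison and 0 had an unadjusted p under 0.05, and their summed level was 45.002 to 63.3 FPKM in vehicle, 45.4 to 49.0 in MPTP and 40.1 to 48.6 in exercise libraries. Among 15 genes of retinoic acid synthesis, receptors and breakdown, a signal that induces Hox genes in the embryo, 12 were tested and 0 were called, with 1, 1 and 0 at an unadjusted p under 0.05 in the 3 comparisons, where 4.09%, 3.99% and 6.54% of all genes were. Polycomb subunits, which keep Hox genes silent, gave 0 of 16 called, with 0, 0 and 3 at an unadjusted p under 0.05, and trithorax subunits, which keep them active, 0 of 9, with 0 in each. Of 7 regulators upstream of Hox genes in the hindbrain segments, 3 were tested and 0 called, with 0 at an unadjusted p under 0.05, and Cdx2 and Cdx4, which act in the tail end of the embryo, were listed at 0 in every library. The median log2 fold changes for MPTP against vehicle were -0.05 for the cofactors, 0.08 for the retinoic acid genes, -0.05 for the Polycomb subunits and -0.09 for the trithorax subunits, against -0.01 over all genes.

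Among 12018 other protein-coding genes that averaged 1 FPKM or more, the 10 whose log2(FPKM + 1) ran most like the log2 summed Hox level over the 9 libraries were Slc6a5, Fam57b, St3gal6, Kcnj14, Spp1, Dnajc21, Pkmyt1, Car13, Sh3bgr and Ankrd35. Pearson's r ran from 0.942 to 0.983. Without the 2 libraries farthest from the median Hox sum it ran from 0.886 to 0.963. The Hox sums form 2 sets of libraries, so r here ranks genes and is no test. Spp1, the secreted protein osteopontin, was 24.8, 74.7 and 12.9 FPKM in vehicle, 50.6, 51.4 and 22.9 in MPTP, and 18.1, 98.8 and 15.1 in exercise 1 to 3. Kcnj14, an inward rectifier potassium channel, was 0.635, 1.21 and 0.785 in vehicle, 1.76, 2.06 and 0.746 in MPTP, and 0.713, 2.64 and 0.620 in exercise. All 10 genes were higher in vehicle 2, MPTP 1, MPTP 2 and exercise 2 than in each of the other 5 libraries, which their choice by r favoured. Fam57b, at 10.9 to 18.2 FPKM, varied far less in proportion.

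The clusters also hold 46 other genes of the table, and 20 of them were above 0 somewhere. For 7 of the 20 the 4 libraries with high Hox sums were also the 4 highest, and for 13 they were not, while 17 had their highest value in exercise 2. Haglr, a non-coding gene of cluster d, was higher in vehicle 1 (0.179 FPKM) than in vehicle 2 (0.0870), and the pseudogene Gm11539 was highest in exercise 3 (0.343) and lowest in exercise 2 (0.0335). Hotairm1, a non-coding RNA of cluster a on the opposite strand from its Hox genes, was 0.166, 0.530 and 0.0228 FPKM in vehicle, 0.644, 0.682 and 0.371 in MPTP, and 0.245, 1.93 and 0.152 in exercise 1 to 3. Gm11536, an antisense gene of cluster b, was 0, 0.0267 and 0 in vehicle, 0.248, 0.108 and 0 in MPTP, and 0, 1.19 and 0 in exercise. Both belong to the 7, and both were singled out after their values were seen. Of 7 microRNA genes only Mir10b was above 0, at 0.145 FPKM in exercise 2. mRNA enrichment before sequencing does not capture mature microRNAs, so this value concerns the hairpin locus. The mature microRNAs of the paired loci in clusters b and d are shown because they share their seed, bases 2 to 8, in capitals (RefSeq, GRCm38.p6).
miR-10a-5p: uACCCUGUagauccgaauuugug
miR-10b-5p: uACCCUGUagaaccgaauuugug
They differ in 1 base outside the seed. Mir10a, the locus beside Hoxb4, was listed at 0 in every library.

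The counting of overlapping genes limits some of the values above. Of the 39 Hox genes, 16 share exonic bases with another gene, and whether reads were assigned by strand is not given in the sources used here. Hoxb3 shares 52.9% of its exonic bases with the antisense gene Hoxb3os, and Hoxb2 27.3%. Hoxd3 shares 53.1% and Hoxd4 39.1% with Gm28230, a gene on the same strand. The levels of these 4 genes are uncertain for that reason. The same 4 libraries were the highest for Hoxa5, Hoxc4 and Hoxb4, which share none, and for Hoxb5, which shares 3.59% with Hoxb5os.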

How the data were processed

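RNA of 9 mouse substantia nigra libraries (3 groups of 3) was enriched for mRNA and sequenced on an Illumina NovaSeq, per the labels' protocols. The deposited table holds FPKM per gene as the authors computed them. Per the submitters' processing notes, bcl2fastq, HTSeq and DESeq2 were used, without versions, with build GRCm38. Not given in the sources used here are the aligner, the tool behind the FPKM and whether counting used strand. Counts of reads were not analysed here. FPKM sums were 318416 to 347524 per library, and depth was only estimated, from low values of genes of at least 500 bases.

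Symbols, coordinates and exons came from GENCODE M21 on GRCm38 (55154 genes matched, 181 not). Promoters and microRNAs came from RefSeq GRCm38.p6, with 17 Hox promoters unmatched. The analysis used limma 3.58.1 with a mean-variance trend (R 4.3.3) on log2(FPKM + 1), which understates changes of low genes. Genes entered it when they averaged 0.5 FPKM or more. All 9 libraries entered 1 fit with 3 contrasts, two-sided p, Benjamini-Hochberg adjustment over all genes tested and a threshold of 0.05. The script was tested on simulated data. Summed Hox levels were described without a test. Alternatives covered the filter, the pseudocount, scaling, the groups fitted, the replicate block and each library left out.

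Hox genes past this filter were named with tests, the next 10 by mean and those above 0.05 FPKM in fewer than 3 libraries with all values, and the others by range and counts. Up to 4 genes per context list and the 10 most alike genes were named. Slc6a3, Pax2, Gbx2, Hotairm1, Gm11536, Haglr, Gm11539, Hoxd9, Hoxb13 and Hoxd13 were singled out after their values were seen. Values of some single genes are not reported here. The Hox genes and lists were chosen with earlier results of these data known.

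Replicate numbers carry no stated meaning. Deviations from group means correlated at 0.25, 0.33 and 0.11 between same-numbered MPTP and vehicle libraries. Same-numbered libraries, those of the exercise group included, were treated as pairs in the alternatives with a replicate block.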

Additional observations from a re-analysis of the deposited data

How the results depend on the processing

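Across the 19 alternatives, 0 Hox genes passed limma's threshold in any comparison. For MPTP against vehicle the fold changes of the 5 tested genes kept their direction except that of Hoxc4, -0.036 without MPTP 2 (range -0.036 to 0.54 with 1 library left out). Without MPTP 2 the other 4 fell to 0.17 (Hoxa4), 0.048 (Hoxa5), 0.074 (Hoxb5) and 0.20 (Hoxb3). For MPTP plus exercise against MPTP a pseudocount of 0.1 reversed all 5 (Hoxa4 -0.41, Hoxa5 -0.072, Hoxb5 -0.33, Hoxb3 -0.47, Hoxc4 -0.31), and leaving out MPTP 3 reversed Hoxa4 (-0.28) and Hoxb3 (-0.29), whose highest values with 1 library left out were 0.52 and 0.37. Without exercise 2 no Hox gene passed the filter. On the genes tested with all libraries, an alternative chosen after seeing the data, its removal gave -0.71, -0.72, -0.77, -0.61 and -0.54 against MPTP and -0.30, -0.19, -0.32, -0.14 and -0.35 against vehicle for Hoxa4, Hoxa5, Hoxb5, Hoxb3 and Hoxc4. The cause of these reversals beyond the library or pseudocount itself was not tested.

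The number of all genes called for MPTP against vehicle was 2. It was 0 with only the 2 groups in the fit, and ran from 0 to 32 with 1 library left out, 32 without MPTP 1. For MPTP plus exercise against MPTP it was 0, became 3 with no filter and 1 with equal FPKM sums, and ran from 0 to 25, the latter without MPTP 1. For MPTP plus exercise against vehicle it ran from 0 to 2. Without exercise 2, on the genes tested with all libraries, the counts were 0, 1 and 1.

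With the replicate block, which pairs libraries by number, 3 genes were called for MPTP against vehicle, and 0 with the block and only the 2 groups compared, a fit added after seeing the data. The block changed no Hox call. Correlations of same-numbered libraries were -0.34, -0.13 and 0.25 for MPTP plus exercise with MPTP and -0.26, 0.007 and 0.24 with vehicle. The block paired the exercise libraries by number as well, so its fits with that group rest on numbers whose correlations differed in sign.

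Depth limits the low values: a listed 0 does not show absence, and 1 fragment was worth 0.00618 to 0.0516 FPKM.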
